A study of Ovis aries with 62 samples.

Results

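PABPC1 (ENSOARG00000000095) and SRRM2 (ENSOARG00000000491) are 2 of the 16011 genes measured in the rumen wall of the AUS sheep. PABPC1 encodes the main cytoplasmic poly(A)-binding protein. It coats the poly(A) tail of mRNAs, contacts the translation initiation factors at the cap, and takes part in the control of mRNA decay. SRRM2 encodes a very large protein rich in serine and arginine repeats that is part of the spliceosome and a scaffold of nuclear speckles, the bodies in which splicing factors are stored. Ribosomal proteins, the products of the genes against which the pair was set, form the translating ribosome together with ribosomal RNA, and their mRNAs are known in mammals as highly expressed transcripts that are regulated together at translation. Both genes were selected on these libraries: they stand on a list of genes that the study drew up by comparing sheep with a short and a long rumen retention time at constant muscle expression, and they were taken up here with the differences between test blocks already known. The differences of the pair between block 1 and the other blocks are therefore given with their SE and without a p value. No p value below is evidence from samples that the choice did not use. Genes named below for a high or low correlation with the pair were picked over the same sheep. Their block 1 p values are therefore no separate evidence.

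The samples were full-thickness ventral rumen walls of 62 adult Merino ewes, 1 library per sheep. All ewes received the same mixture of lucerne and oat chaff, and no group carried a treatment or an edited gene. They were tested in 4 blocks. Block 1 had 16 sheep, as did blocks 2 and 4, while block 3 had 14, and each sheep carried labels for live weight, CH4 production and dry matter intake (DMI). The blocks were test periods, so everything that differed between periods came with the block and cannot be told apart from it.

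A library held 4208032 to 12130080 reads assigned to genes. The median library of block 1 had 6812020 reads, against 8215480 for block 2, 8694507 for block 3 and 8588580 for block 4. PABPC1 had 530 to 2590 reads per library and SRRM2 1440 to 9133, so counting error was small beside the spread between sheep. The values are log2 CPM, the log2 of the read count of a gene scaled to the size of its library. Both parts of the rumen wall were present in every library. The mean of 15 epithelial genes was 7.27 to 8.87 log2 CPM in block 1 and 8.24 to 9.05 in blocks 2–4, and that of 19 smooth muscle contractile genes was 9.04 to 11.1 in block 1 and 8.43 to 10.8 in blocks 2–4. In bulk tissue, fewer cells of a type and less RNA per cell cannot be told apart. Only uniquely mapped reads were counted. PABPC1 and the ribosomal protein genes have near-identical copies in mammalian genomes, so part of their reads may have been lost or split, and their values are uncertain to that extent.

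Both genes were higher in block 1, PABPC1 by 1.98-fold and SRRM2 by 1.89-fold against blocks 2–4. In block 1 the PABPC1 level was 7.13 log2 CPM in the lowest sheep, 8.12 at the median and 8.63 in the highest. In block 2 the lowest, median and highest levels were 6.61, 7.13 and 7.62 log2 CPM, in block 3 6.60, 7.04 and 7.44, and in block 4 6.29, 6.88 and 7.19. All 16 sheep of block 1 lay above the median of blocks 2–4, and 12 lay above every sheep of blocks 2–4. The other 4 sheep of block 1, at 7.13 to 7.22 log2 CPM, lay inside the range of the other blocks, with a gap up to the next sheep at 7.62. The linear medians were 279 CPM for block 1, against 140.1 CPM for block 2, 132 CPM for block 3 and 118 CPM for block 4.

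SRRM2 gave the same picture with its own range. In block 1 the lowest sheep had 8.46 log2 CPM, the median was 9.71 and the highest sheep had 10.42. The lowest, median and highest levels were 8.30, 8.91 and 9.23 log2 CPM in block 2, 8.19, 8.69 and 8.96 in block 3, and 8.32, 8.53 and 8.95 in block 4. Of the 16 sheep of block 1, 15 lay above the median of blocks 2–4 and 11 above every sheep of blocks 2–4. Those 11 sheep were all among the 12 that were above every other-block sheep for PABPC1. The 4 sheep of block 1 with a low PABPC1 level had 8.46 to 9.19 log2 CPM of SRRM2, again within the range of the other blocks. On the linear scale block 1 had a median of 836 CPM, against 480 CPM for block 2, 413 CPM for block 3 and 370 CPM for block 4.

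**Figure D1:**
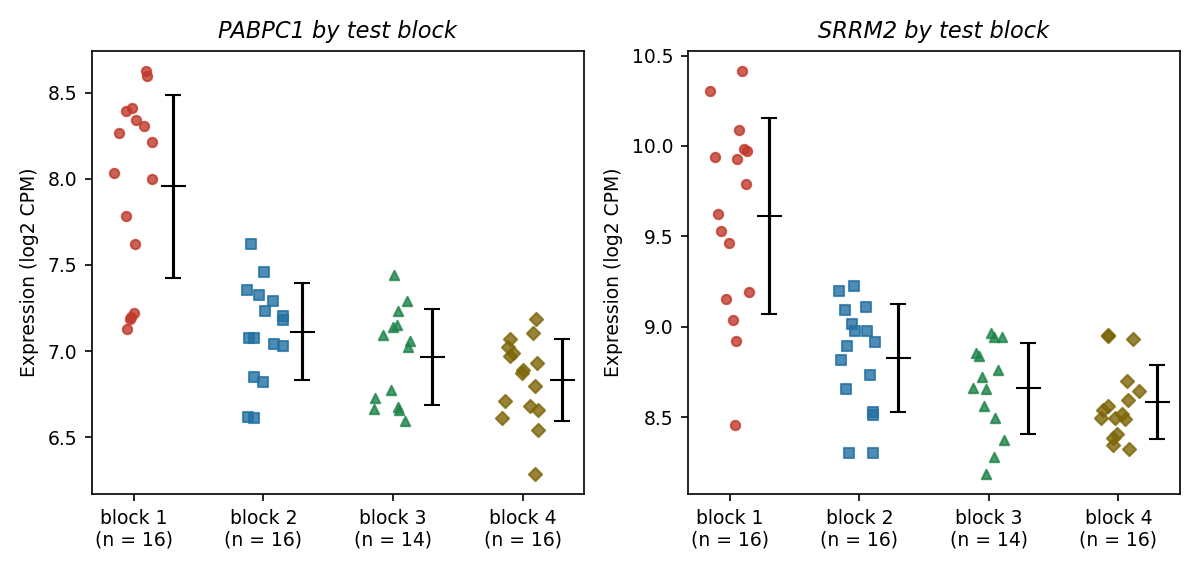
Expression of PABPC1 (left) and SRRM2 (right) in log2 CPM (vertical axis) in each sheep by test block; points are sheep and the bars beside them are the mean ± SD. Block 1 reached 8.63 log2 CPM for PABPC1 and 10.42 for SRRM2, and 4 of its sheep overlap the other blocks in PABPC1.

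The mean PABPC1 level was 7.96 ± 0.53 log2 CPM in block 1 (SD, n = 16) and 6.97 ± 0.29 in blocks 2–4 (SD, n = 46). The limma difference was 0.99 on the log2 scale (SE 0.10), a 1.98-fold higher level. SRRM2 averaged 9.61 ± 0.54 log2 CPM in block 1 and 8.69 ± 0.27 in blocks 2–4, a difference of 0.92 (SE 0.10) or 1.89-fold. The SD was larger in block 1 for both genes, and limma fits 1 variance per gene, so these SEs are too small. When the groups were allowed unequal variances the SEs were 0.139 for PABPC1 and 0.141 for SRRM2. Across the table limma called 2755 genes higher in block 1, or 17.2%, and 3087 genes lower, or 19.3%, at an adjusted *p* under 0.05. Of the 2755 genes called higher, 199 had a larger difference than PABPC1 and 267 a larger one than SRRM2. With library totals in place of the deposited scaling 3798 genes were called higher and 2059 lower, and the differences were 1.06 for PABPC1 and 0.99 for SRRM2.

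Within blocks 2–4 the levels followed the order block 2, block 3, block 4 for both genes, by steps that did not pass the test across all genes. PABPC1 was 0.15 higher in block 2 than in block 3 on the log2 scale (SE 0.13, limma adjusted *p* = 0.898), 0.28 higher in block 2 than in block 4 (SE 0.12, adjusted *p* = 0.997) and 0.13 higher in block 3 than in block 4 (SE 0.13, adjusted *p* = 0.923). For SRRM2 the same differences were 0.17, 0.24 and 0.08, with limma adjusted *p* of 0.883, 0.999 and 0.964. Before adjustment, the difference of block 2 from block 4 had *p* = 0.0249 for PABPC1 and *p* = 0.0482 for SRRM2 in limma. The 4 blocks shared 1 variance per gene in this fit. The SD of PABPC1 was 0.53 in block 1 and 0.24 to 0.28 in the other blocks, and that of SRRM2 was 0.54 and 0.21 to 0.30. For the pair these SEs are therefore too large and the *p* values too high. Over all genes limma called 0% between block 2 and block 3 (1028 genes at an unadjusted *p* under 0.05), 0% between block 2 and block 4 (771 genes) and 0.0125%, or 2 genes, between block 3 and block 4.

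The share of muscle in a full-thickness sample was followed with NEXN (ENSOARG00000013187), which encodes an actin-binding protein of muscle, and with the mean of the 645 other genes of the muscle list of the study, SRRM2 and NEXN left out. The paper names NEXN itself as a candidate gene for retention time, found at constant muscle expression. NEXN may therefore not follow muscle content alone. NEXN was higher in block 1, where it averaged 6.87 ± 0.65 log2 CPM, against 6.20 ± 0.75 in blocks 2–4. The muscle mean was 6.23 ± 0.33 log2 CPM in block 1 and 5.81 ± 0.33 in blocks 2–4. The groups overlapped in both, since 7 sheep of block 1 had a muscle mean above every sheep of blocks 2–4 and 29 of the 46 sheep of blocks 2–4 lay above the lowest sheep of block 1.

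Holding the muscle measures constant lowered the block 1 differences of the pair without turning them. With NEXN as a covariate the difference was 0.88 for PABPC1 (SE 0.11) and 0.82 for SRRM2 (SE 0.11) on the log2 scale. With the muscle mean as a covariate it was 0.77 for PABPC1 (SE 0.10) and 0.69 for SRRM2 (SE 0.10). Over all genes the muscle mean as a covariate left 1174 genes higher in block 1, or 7.33%, and 1132 lower, or 7.07%. NEXN itself was then at −0.16 (SE 0.11, limma adjusted *p* = 0.357). The muscle list is itself mixed, as it holds 17 of the 30 chromatin regulators described below, and 67 of its 646 genes other than SRRM2 had *r* above 0.8 with SRRM2.

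**Figure D2:**
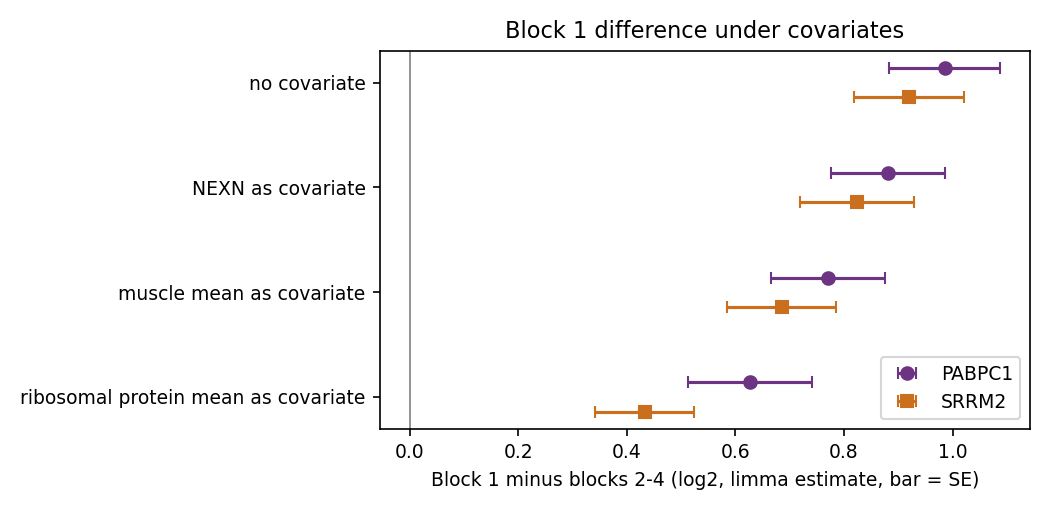
Difference of block 1 from blocks 2–4 (log2, horizontal axis) for PABPC1 and SRRM2 without a covariate and with NEXN, the muscle mean or the ribosomal protein mean as a covariate; points are limma estimates and bars their SE. The PABPC1 difference is 0.99 without a covariate, 0.77 with the muscle mean and 0.63 with the ribosomal protein mean.

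PABPC1 and SRRM2 rose and fell together from sheep to sheep. Over the 62 sheep Pearson's *r* was 0.93 and Spearman's rho 0.83, each with a 2-sided permutation *p* of 1e-05, the smallest that 100000 permutations can give (adjusted over 7 relations, *p* = 1.4e-05 for *r* and 1.75e-05 for rho). After the 2 sheep farthest from the median were left out, *r* was 0.91. The relation was present inside the blocks as well. It was 0.93 within block 1, 0.71 within block 2, 0.68 within block 3 and 0.51 within block 4, where the permutation test gave an adjusted *p* of 0.0984. Without block 1 *r* was 0.70, and with the muscle mean held constant it was 0.88. With both the block means and the muscle mean removed it was 0.76. Over all genes measured, 2 had a higher *r* with PABPC1 than SRRM2 had, and 20 had a higher *r* with SRRM2 than PABPC1 had.

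**Figure D3:**
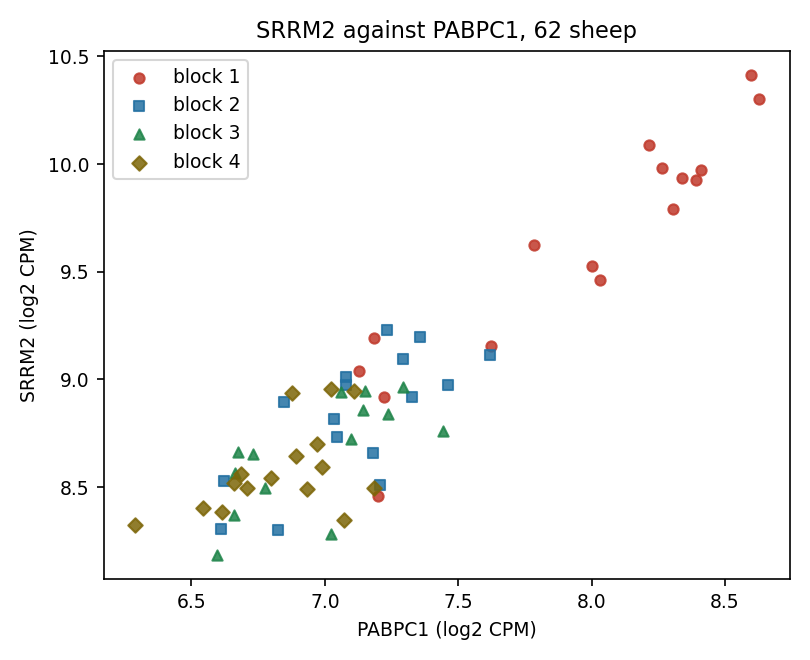
SRRM2 (vertical axis, log2 CPM) against PABPC1 (horizontal axis, log2 CPM) in 62 sheep; each point is a sheep and color and shape give its block. The points run along 1 line (r = 0.93), with the sheep of block 1 reaching beyond the others at the upper end.

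With NEXN the pair was related more loosely. Over 62 sheep *r* was 0.48 for PABPC1 (rho 0.45, permutation *p* = 0.00013) and 0.46 for SRRM2 (rho 0.43, permutation *p* = 0.00011), and it was 0.46 and 0.45 without the 2 farthest sheep. Within blocks it was 0.29 to 0.48 for PABPC1 and 0.28 to 0.49 for SRRM2, and no block passed the permutation test on its own after adjustment. With the muscle mean *r* was 0.64 for PABPC1 (rho 0.53) and 0.67 for SRRM2 (rho 0.61), each with a permutation *p* of 1e-05, and 0.63 and 0.64 without the 2 farthest sheep. Within block 1 it was 0.64 for PABPC1 and 0.69 for SRRM2, and within blocks 2–4 it ran between 0.27 and 0.56. Once the muscle mean was held constant, the sign of the relation to NEXN turned, to *r* = −0.30 for PABPC1 (permutation *p* = 0.0182) and *r* = −0.42 for SRRM2. SRRM2 and NEXN are both members of the muscle list, whose genes were grouped by their correlation across sheep, these sheep among them. A positive *r* of SRRM2 with NEXN and with the muscle mean was thus partly built in. The permutation *p* values of these SRRM2 relations are no separate evidence.

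The ribosomal protein genes ran opposite to the pair, as did the epithelial and metabolism lists described below. The 36 measured ribosomal protein genes come from the tables of the study, which were built on networks that include these libraries. A few symbols stand for more than 1 gene model. Their mean level was 8.50 ± 0.22 log2 CPM in block 1 and 8.82 ± 0.15 in blocks 2–4. In block 1 it ran between 8.16 and 9.03 log2 CPM with a median of 8.47, against a range of 8.46 to 9.23 and a median of 8.83 in blocks 2–4. Of the 16 sheep of block 1, 8 lay below every sheep of blocks 2–4 and 15 below their median. All 36 genes were called lower in block 1, against 19.3% of all genes. Their median difference was −0.31 on the log2 scale, against −0.01 over all genes. When the muscle mean was a covariate 20 of the 36 were called lower, against 7.07% of all genes, and 0 higher, with a median difference of −0.16.

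Over the 62 sheep the ribosomal protein mean had *r* = −0.75 with PABPC1 (rho −0.62) and *r* = −0.85 with SRRM2 (rho −0.79), each with a permutation *p* of 1e-05 and an adjusted *p* of 1.4e-05. Without the 2 farthest sheep *r* was −0.69 for PABPC1 and −0.81 for SRRM2. For SRRM2 the relation was −0.90 within block 1, −0.65 within block 2, −0.70 within block 3 and −0.77 within block 4, and each of these passed the permutation test with adjusted *p* of 7e-05, 0.0187, 0.0293 and 0.00245. For PABPC1 it was −0.80 within block 1 (permutation, adjusted *p* = 0.00014), and −0.48, −0.32 and −0.31 within blocks 2, 3 and 4, where it did not pass. Without block 1 *r* was −0.31 for PABPC1 (permutation *p* = 0.0385) and −0.60 for SRRM2. With the muscle mean held constant *r* was −0.54 for PABPC1 and −0.71 for SRRM2.

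The ribosomal protein mean and the muscle mean were not separate from each other in these samples. With the ribosomal protein mean held constant, the relation of the pair to the muscle mean was *r* = 0.17 for PABPC1 (permutation *p* = 0.195) and *r* = 0.07 for SRRM2 (permutation *p* = 0.562), while PABPC1 and SRRM2 still had *r* = 0.83 with each other. With the ribosomal protein mean as a covariate, an alternative added after the data were seen, the block 1 difference was 0.63 for PABPC1 (SE 0.11) and 0.43 for SRRM2 (SE 0.09), and 239 genes were called in place of 5842. The 4 sheep of block 1 with low PABPC1 had a ribosomal protein mean of 8.49 to 9.03 log2 CPM, inside the range of the other blocks. Sheep oz39, oz40, oz152 and oz165 of block 1 also had a ribosomal protein mean inside that range, each above the 8.49 of oz184. Their PABPC1 levels, from 7.62 log2 CPM up, were nevertheless above every sheep of blocks 2–4. A ribosomal protein mean inside that range therefore did not set the sheep with low PABPC1 apart.

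**Figure D4:**
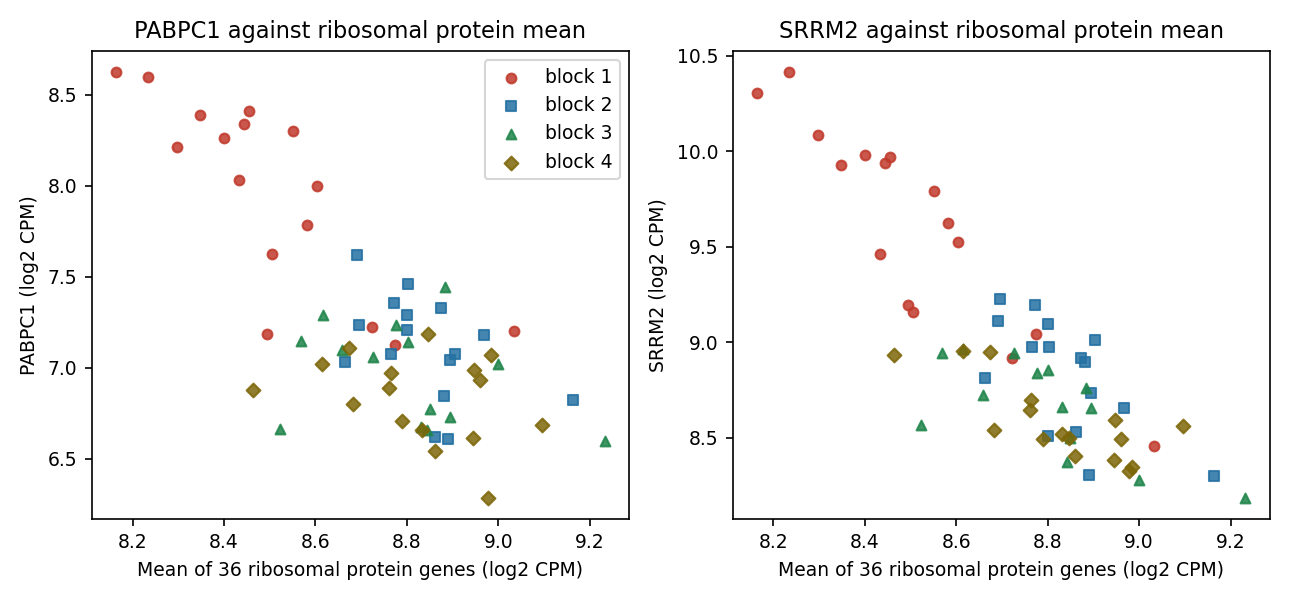
PABPC1 (left) and SRRM2 (right) in log2 CPM (vertical axis) against the mean of 36 ribosomal protein genes in log2 CPM (horizontal axis) in 62 sheep, each point a sheep, colored and shaped by block. SRRM2 falls with the ribosomal protein mean within each block, while PABPC1 does so most clearly in block 1 (r = −0.80).

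Each ribosomal protein gene on its own had a negative *r* with both genes of the pair. With PABPC1 *r* ran between −0.83 and −0.48 with a median of −0.64, and with SRRM2 between −0.87 and −0.57 with a median of −0.74. Over all other genes the median *r* was −0.02 with PABPC1 and −0.01 with SRRM2. RPL13A and RPS21, which encode proteins of the large and the small subunit, lay lowest: RPL13A (ENSOARG00000020159) had *r* = −0.83 with PABPC1 and −0.87 with SRRM2, and RPS21 had −0.79 and −0.87. RPL18 and 1 of the gene models of RPL17 lay highest, at −0.48 and −0.48 with PABPC1 and −0.57 and −0.60 with SRRM2. In the sheep of blocks 2–4 alone 33 of 36 were negative with PABPC1 (median −0.26) and 35 of 36 with SRRM2 (median −0.50). With block and muscle mean both held constant 35 of 36 were negative with PABPC1 and all 36 with SRRM2. The opposite run was not particular to ribosomal protein genes. The mean of the other metabolism genes of the study had *r* = −0.80 with PABPC1 and −0.85 with SRRM2. That of the general metabolism genes had −0.77 and −0.87. At a constant muscle mean the median *r* was −0.40 and −0.48 for the other metabolism genes, against −0.42 and −0.56 for the ribosomal protein genes.

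Other factors that act on mRNA in the cytoplasm were split between those that ran with the pair and those that ran opposite to it. This list and those of splicing factors, chromatin regulators and cell type markers hold only genes that the study named. The study selected genes on networks and comparisons that include these libraries. Counts called in these lists, set against all genes, are therefore no independent evidence. Of 33 translation and decay factors, 24 were called higher in block 1, against 17.2% of all genes, 5 lower, against 19.3%, and 4 were not called, with a median difference of 0.43 on the log2 scale. Of the 33, 27 had a positive *r* with each gene of the pair, and the median *r* was 0.64 with PABPC1 and 0.67 with SRRM2. HELZ, a helicase that binds PABPC1 and takes part in mRNA decay, had *r* = 0.89 with PABPC1 and 0.93 with SRRM2 and was 0.62 higher in block 1 (SE 0.07, limma adjusted *p* = 3.1e-09). PRRC2C had *r* = 0.89 with PABPC1, and ATXN2L, which encodes a stress granule protein, had *r* = 0.93 with SRRM2 and was 0.88 higher in block 1 (SE 0.12, limma adjusted *p* = 7.73e-08). On the other side stood EEF1A1 and EEF1B2, subunits of the elongation factor that delivers tRNA to the ribosome. EEF1A1 had *r* = −0.71 with PABPC1 and −0.79 with SRRM2 and a block 1 difference of −0.25 (SE 0.05, limma adjusted *p* = 1.4e-05). EEF1B2 had *r* = −0.70 with PABPC1 and −0.80 with SRRM2 and a block 1 difference of −0.33 (SE 0.06, limma adjusted *p* = 1.19e-05). At a constant muscle mean 12 of the 33 were called higher, against 7.33% of all genes, and 2 lower, against 7.07%, with a median difference of 0.09. With block and muscle mean both held constant 11 of the 33 had a negative *r* with PABPC1 (median 0.19) and 12 with SRRM2 (median 0.30).

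Splicing and nuclear RNA factors, the group to which SRRM2 belongs by function, ran with the pair for the most part. All 18 had a positive *r* with both, with a median of 0.73 with PABPC1 and 0.78 with SRRM2, and 16 were called higher in block 1, against 17.2% of all genes, 0 lower and 2 were not called. With block and muscle mean both held constant 3 of the 18 were negative with PABPC1 and 4 with SRRM2. SF3A1, a subunit of the splicing complex that recognizes the branch site, had *r* = 0.87 with PABPC1 and 0.93 with SRRM2 and was 0.76 higher in block 1 (SE 0.11, limma adjusted *p* = 9.32e-08). YLPM1 had *r* = 0.91 with PABPC1 and 0.93 with SRRM2. The lowest were KIAA1429, a component of the complex that methylates adenosines in mRNA, with *r* = 0.13 and 0.06 and a block 1 difference of −0.01 (SE 0.05, limma adjusted *p* = 0.921), and RAVER2 with *r* = 0.41 and 0.40. At a constant muscle mean 9 of the 18 were called higher, against 7.33% of all genes, and 1 lower, against 7.07%. Of these 18 genes 14 also stand on the muscle list of the study, as do 16 of the 33 translation and decay factors.

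The chromatin regulators had the highest median *r* with both genes of all lists examined. All 30 were called higher in block 1, against 17.2% of all genes, with a median difference of 0.60 on the log2 scale. They were taken only from genes that the study named, so this count is no independent evidence. With the muscle mean as a covariate 26 of them were called higher, against 7.33% of all genes, with a median of 0.38. Every one had a positive *r* with both genes, with a median of 0.84 with PABPC1 and 0.88 with SRRM2, and 19 had *r* above 0.8 with PABPC1 and 22 with SRRM2. The lowest were BRD2, a reader of acetylated histones, at *r* = 0.51 with PABPC1, CHD3, a remodelling ATPase, at *r* = 0.54 with SRRM2, and TET1, which oxidizes methylated cytosine, at 0.54 with PABPC1 and 0.57 with SRRM2. In blocks 2–4 alone the median *r* was 0.56 with PABPC1 and 0.70 with SRRM2.

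**Figure D5:**
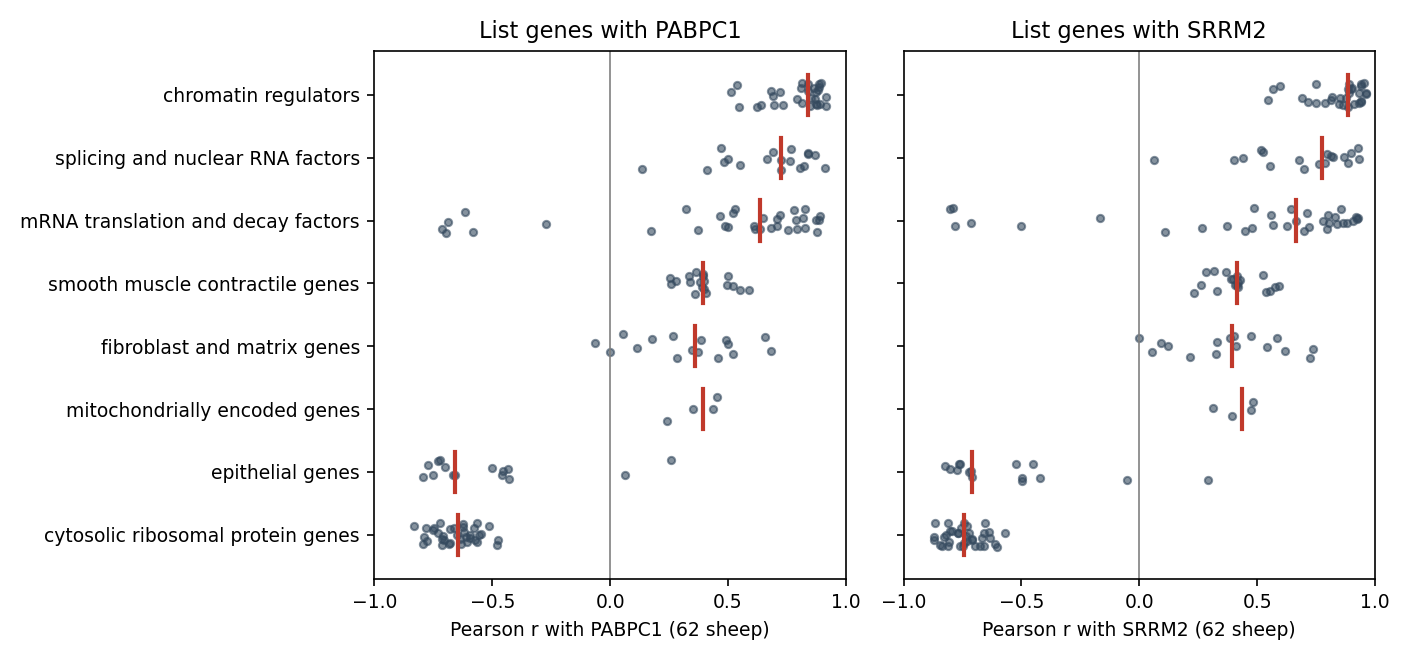
Pearson r over 62 sheep (horizontal axis) of each gene of 8 lists with PABPC1 (left) and with SRRM2 (right); each point is a gene and the red line is the median of the list. The 30 chromatin regulators and 18 splicing factors are all to the right of 0, the 36 ribosomal protein genes are all to the left, and 6 of the 33 translation and decay factors are to the left.

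Cell type markers of the rumen wall moved with the same blocks. These markers too were taken only from genes that the study named, so their counts are no independent evidence. All 19 smooth muscle contractile genes were called higher in block 1, against 17.2% of all genes (median difference 0.52). With the muscle mean as a covariate 0 of them were called higher, against 7.33% of all genes, and 3 lower, against 7.07%. All 19 also stand on the muscle list and are part of that mean, so this change was partly built in. Their *r* with the pair was lower than that of the RNA factors, with a median of 0.39 with PABPC1 and 0.41 with SRRM2, between 0.23 and 0.59 over both. SYNPO2 was near the top of this range, at 0.55 with PABPC1 and 0.58 with SRRM2. MYL6 and TAGLN were lowest, at 0.25 and 0.26 with PABPC1 and 0.23 and 0.26 with SRRM2. With the muscle mean, which contains these 19 genes, held constant the median was −0.49 with PABPC1 and −0.54 with SRRM2. Of 16 fibroblast and matrix genes 9 were called higher in block 1, again against 17.2% of all genes, 0 lower and 7 were not called, with a median *r* of 0.36 with PABPC1 and 0.39 with SRRM2. BGN and COL6A1 were highest, at 0.68 and 0.66 with PABPC1 and 0.74 and 0.72 with SRRM2. The fibrillar collagens COL3A1 and COL1A2 were lowest, at −0.06 and −0.001 with PABPC1 and −0.001 and 0.05 with SRRM2. All 16 matrix genes stand on the muscle list as well. With the muscle mean as a covariate 0 of the 16 were called higher, against 7.33% of all genes, and 1 lower, against 7.07%. At a constant muscle mean their median *r* was −0.40 with PABPC1 and −0.36 with SRRM2, a change again partly built in.

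The epithelial markers ran the other way. Of 15 epithelial genes 11 were called lower in block 1, against 19.3% of all genes, 0 higher and 4 were not called, with a median difference of −0.44 on the log2 scale. The median *r* was −0.66 with PABPC1 and −0.71 with SRRM2. EPCAM, an adhesion molecule of epithelial cells, had *r* = −0.79 and −0.83 and a block 1 difference of −0.86 (SE 0.12, limma adjusted *p* = 4.21e-08). KRT78, a keratin of stratified epithelium, had *r* = −0.77 and −0.80 and a block 1 difference of −1.62 (SE 0.24, limma adjusted *p* = 4.7e-07). LAMA3 and KRT13 were the highest, at 0.26 and 0.07 with PABPC1 and 0.29 and −0.05 with SRRM2, and neither was called. The mean of the 15 genes had *r* = −0.74 with PABPC1 and −0.78 with SRRM2 within block 1, and −0.55 to −0.06 with PABPC1 and −0.56 to −0.44 with SRRM2 within the other blocks. The part of the epithelial share in the block difference of the pair was not tested.

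The lists of the study, which were selected on networks that include these sheep and are no independent evidence, fell into the same 2 sides. Of the 646 muscle list genes other than SRRM2, 643 had a positive *r* with PABPC1 (median 0.51) and 644 with SRRM2 (median 0.53). Of the 354 other metabolism genes, 350 had a negative *r* with each, with medians of −0.66 and −0.72. All 42 general metabolism genes were negative with both, with medians of −0.62 with PABPC1 and −0.70 with SRRM2, and 39 of 41 lipid/oxo-acid metabolism genes were negative with each, with medians of −0.48 and −0.48. All 43 epithelial differentiation genes were negative with both, with medians of −0.62 and −0.66. In blocks 2–4 alone 28 of the 43 were negative with PABPC1 (median −0.17) and 33 with SRRM2 (median −0.25). Within blocks 1 to 4 the mean of these genes had *r* = −0.72, −0.28, 0.46 and −0.05 with PABPC1. With SRRM2 it had −0.75, −0.51, 0.06 and 0.08. The 43 cell cycle genes were nearest to 0, with medians of −0.18 and −0.22. The 4 mitochondrially encoded genes, not a list of the study, had *r* of 0.24 to 0.45 with PABPC1 and 0.31 to 0.48 with SRRM2. CYT.B and MT-ATP6 were highest and COIII and MT-ND5 lowest. None of the 4 was called between block 1 and blocks 2–4 in limma, where 17.2% of all genes were called higher and 19.3% lower.

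Only 1224 genes carried a symbol in the tables of the study, and the genes most like the pair are named from these. Over 62 sheep 149 genes had *r* above 0.8 with PABPC1 and 253 with SRRM2, and 144 genes other than the pair were above it with both. All 149 and all 253 were called higher in block 1, against 17.2% of all genes. The block 1 differences of the genes named here are thus no result apart from their *r*. Of the 149, 83 had a symbol, and of the 253, 129. After SRRM2, those with the highest *r* with PABPC1 were KMT2C, which encodes a histone lysine methyltransferase, at 0.92, EP300, a histone acetyltransferase, at 0.92, YLPM1 at 0.91, TMEM131 at 0.91, TRIO, which encodes a guanine nucleotide exchange factor, at 0.89, KMT2D, a further histone lysine methyltransferase, at 0.89, RNF10 at 0.89, HIVEP2, a zinc finger transcription factor, at 0.89, and SETD1A, again a histone lysine methyltransferase, at 0.89. At a constant muscle mean these *r* values were between 0.81 and 0.87. With block and muscle mean both held constant they were lower, between 0.63 for HIVEP2 and 0.76 for KMT2C. In the sheep of blocks 2–4 alone they ran from 0.54 for KMT2D to 0.75 for EP300.

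SRRM2 had still closer companions. EP400, an ATPase of a chromatin remodelling complex, had *r* = 0.96, KMT2C 0.96, EP300 0.95, the transcription factor gene ZFHX3 0.95, KMT2D 0.94, SETD1A 0.94, SRCAP, a further remodelling ATPase, 0.94, the kinase gene WNK1 0.93 and KMT2A 0.93. In the sheep of blocks 2–4 alone EP400 was at 0.88 and KMT2D at 0.74. Of these genes, KMT2D had the largest block 1 difference, 1.17 on the log2 scale (SE 0.12, limma adjusted *p* = 3.49e-10).

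At the other end LAPTM4A, a membrane protein of lysosomes, had the lowest *r* with both, −0.88 with PABPC1 and −0.89 with SRRM2, and a block 1 difference of −0.50 (SE 0.06, limma adjusted *p* = 1.8e-08). With PABPC1 it was followed by RPL13A, by LIPN, a lipase gene of cornifying epithelium, at −0.82, by GCNT3, a glycosyltransferase gene, at −0.81 and by CLTB, which encodes a clathrin light chain, at −0.81. With SRRM2 it was followed by PPIB, a peptidyl-prolyl isomerase gene of the endoplasmic reticulum, at −0.87, and by RPL13A, RPS21 and RPS12, each at −0.87. LIPN had the largest block 1 difference among these, −2.21 on the log2 scale (SE 0.30, limma adjusted *p* = 5.59e-08).

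Library size and scaling also stood apart by block. The scaling factor of the deposited values was 0.97 to 1.15 in block 1 and 0.92 to 1.09 in blocks 2–4, with *r* = 0.56 with PABPC1 and 0.64 with SRRM2. The assigned reads had *r* = −0.46 with PABPC1 and −0.48 with SRRM2 over 62 sheep, −0.74 and −0.60 within block 1, and between −0.40 and 0.02 within the other blocks. The block 1 differences of the pair were as large under 3 other scalings, between 1.00 and 1.06 for PABPC1 and between 0.93 and 1.04 for SRRM2. These scalings use the same reads of each library and so do not address depth. The part of sequencing depth was not tested.

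No trait passed the test across all genes for either gene. CH4 yield, which is CH4 production per kg DMI, was computed for 61 sheep, since 1 sheep of block 3 had an implausibly low labelled intake. Per SD of CH4 yield (3.34 g/kg), PABPC1 changed by −0.16 on the log2 scale (SE 0.07, *p* = 0.0254, limma adjusted *p* = 0.466) and SRRM2 by −0.14 (SE 0.07, *p* = 0.0407, limma adjusted *p* = 0.51). With that sheep, oz151, the slopes per the same 3.34 g/kg were −0.003 for PABPC1 (SE 0.007) and −0.001 for SRRM2 (SE 0.006), and 2 genes were called. Without sheep oz175 of block 4, the lowest remaining intake and the highest yield, the PABPC1 slope was −0.24 (limma adjusted *p* = 0.275) and 18 genes were called. Over all genes 0% were called for CH4 yield in limma, with 1521 at an unadjusted *p* under 0.05. Pearson's *r* was −0.28 for PABPC1 (permutation *p* = 0.0307, adjusted *p* = 0.125 over 8 relations) and −0.25 for SRRM2 (permutation *p* = 0.0469, adjusted *p* = 0.125). Spearman's rho was −0.39 for PABPC1 (permutation *p* = 0.00193, adjusted *p* = 0.0154) and −0.27 for SRRM2 (permutation *p* = 0.0325, adjusted *p* = 0.13).

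This relation to CH4 yield did not hold within blocks. CH4 yield averaged 19.0 ± 1.67 g/kg for block 1, 19.8 ± 3.19 for block 2, 20.8 ± 3.02 for block 3 and 22.6 ± 4.08 for block 4, opposite in order to the levels of the pair. For PABPC1 *r* was −0.07 within block 1, −0.17 within block 2, −0.30 within block 3 and 0.37 within block 4, and it was −0.02 with the block means removed. For SRRM2 it was −0.13, 0.26, −0.03 and −0.11 within the 4 blocks, and 0.004 with the block means removed. With block as a covariate the limma slope was −0.006 for PABPC1 (SE 0.05) and 0.001 for SRRM2 (SE 0.05).

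CH4 production, DMI and live weight gave no call for either gene. Per SD of CH4 production (4.72 g/d) the slope was 0.03 for PABPC1 (SE 0.07, limma adjusted *p* = 0.954) and 0.07 for SRRM2 (SE 0.07, limma adjusted *p* = 0.843), where 0.0125% of all genes were called. The labels give oz151 the same CH4 production as oz224 of block 3, 23.9 g/d, the sole value that 2 sheep share. The slopes were 0.03 for PABPC1 and 0.07 for SRRM2 with either one left out. Per SD of DMI (0.288 kg/d) it was 0.13 for PABPC1 (SE 0.07, limma adjusted *p* = 0.467) and 0.14 for SRRM2 (SE 0.07, limma adjusted *p* = 0.402), and 0% of all genes were called, with 1899 at an unadjusted *p* under 0.05. With block as a covariate the slopes on CH4 production and DMI were negative for both genes, between −0.06 and −0.006. Per SD of live weight (8.32 kg) it was −0.004 for PABPC1 (SE 0.07, limma adjusted *p* = 0.998) and 0.03 for SRRM2 (SE 0.07, limma adjusted *p* = 0.968), where 0.0187% of all genes were called. No difference in the slopes of the pair between blocks passed the interaction test, where the limma adjusted *p* was 0.893 or more for each of the 4 traits.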

How the data were processed

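RNA of 62 ventral rumen walls was sequenced from stranded, ribosomal RNA depleted libraries. The authors used TopHat with Bowtie2 for alignment against the sheep gene models of Ensembl, to which they had added models, counted uniquely mapped reads with HTSeq, and deposited log2 CPM from voom for 16011 genes. The offset of 0.5 reads let whole reads be recovered for 100% of the values (tolerance 0.01), which gave the depth of each library. The deposited log2 values were fitted with limma 3.58.1 in R 4.3.3 (eBayes with trend), and *p* values were adjusted over all genes by Benjamini-Hochberg with a threshold of 0.05. Trait slopes are per SD. Relations between measures were tested by 2-sided permutation (100000), adjusted over 7 relations for the measures and over 8 for the traits. A block is 1 set of sheep tested together, and *p* values take the sheep as independent, although some ewes share a sire. The fits and correlations were tested on simulated data.

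The members and the gene lists were chosen with earlier results of these data known. The genes named are the pair, NEXN, the 10 highest and 5 lowest in *r* with each member among 1224 genes with a symbol, and the 2 highest and 2 lowest of each list of markers, factors or ribosomal proteins. Some genes that this rule selects are not reported here. Alternatives were other scalings, a filter of 3 CPM in all libraries (9939 genes), voom weights, covariates, subsets of blocks and leaving out each sheep. Sheep oz151 was left out of DMI and CH4 yield. Rumen retention time, sire and genome coordinates were not used here.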

Additional observations from a re-analysis of the deposited data

How the results depend on the processing

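The block 1 differences of PABPC1 and SRRM2 kept their direction under all 11 other settings tried, at 0.63 to 1.12 and 0.43 to 1.04 on the log2 scale, and with each sheep left out in turn, at 0.94 to 1.04 and 0.87 to 0.997. The count of genes called between block 1 and blocks 2–4, 5842, was 3507 with NEXN, 2306 with the muscle mean and 239 with the ribosomal protein mean as a covariate, and 3182 against block 2 and 3249 against block 3 alone; 5197 to 6374 were called with 1 sheep left out. The ribosomal protein covariate, the single blocks, the fits without sheep oz175 and the fits with block and muscle mean together were added after the data were seen. No paired analysis was possible because the labels pair no sheep between blocks.

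In limma no setting brought a trait past the threshold for either gene, but signs turned. The rank correlation of PABPC1 with CH4 yield did pass (rho −0.39, permutation, adjusted *p* = 0.0154). With block as a covariate the slopes were −0.0588 for PABPC1 and −0.0123 for SRRM2 on CH4 production, 0.00141 for SRRM2 on CH4 yield, −0.0309 for PABPC1 and −0.00643 for SRRM2 on DMI, and 0.0311 for PABPC1 on live weight. With block and muscle mean they were −0.0393, −0.0234 and 0.0149 for PABPC1 on CH4 production, DMI and live weight, and 0.00394 for SRRM2 on CH4 yield. Without block 1 they were −0.0596, −0.0137 and 0.0163 for PABPC1 on CH4 production, DMI and live weight, and with NEXN SRRM2 was at −0.0107 on live weight. With 1 sheep left out the slopes on live weight ran between −0.0702 and 0.024 for PABPC1 and between −0.0213 and 0.058 for SRRM2.

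The counts of genes called for a trait were small and unstable. For CH4 production they were 16 with NEXN, 37 with the muscle mean, 4 with block, 10 with block and muscle mean, 1 with median of ratios, 1 with quantile normalization, 1 without oz175, and 0 with the 3 CPM filter, with voom weights and without block 1. For CH4 yield they were 2 with oz151, when the slopes were −0.0033 for PABPC1 and −0.0010 for SRRM2, and 18 without oz175. For DMI they were 4 with NEXN, 3 with the muscle mean, 2 with quantile normalization and 4 without oz175. For live weight they were 119 with NEXN, 78 with the muscle mean, 40 with block and muscle mean, 1 with the 3 CPM filter, and 0 with voom weights and with block. With 1 sheep left out they were 0 to 8 for CH4 production, 0 to 18 for CH4 yield, 0 to 19 for DMI and 0 to 5 for live weight.

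Of the relations, that of SRRM2 with the ribosomal protein mean stayed past the threshold under all 13 settings. The relation to NEXN turned with the muscle mean held constant, to *r* = −0.299 for PABPC1 and −0.424 for SRRM2. With the ribosomal protein mean held constant it was 0.0675 and −0.0805, and the relation to the muscle mean was 0.167 and 0.0748, all below the threshold. Within single blocks, each of 14 or 16 sheep, several values no longer passed. These were, with NEXN, 0.293, 0.37, 0.447 and 0.485 for PABPC1 and 0.301, 0.37, 0.488 and 0.284 for SRRM2 in blocks 1 to 4, with the muscle mean 0.359, 0.271 and 0.563 for PABPC1 and 0.413, 0.518 and 0.428 for SRRM2 in blocks 2 to 4, with the ribosomal protein mean −0.477, −0.320 and −0.314 for PABPC1 in blocks 2 to 4, and 0.509 between PABPC1 and SRRM2 in block 4. The causes of these changes were not tested. The pair had 530 reads or more in each library.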
